A study of Mus musculus with 16 samples.

Results

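The genes of the Wnt signal at the cell surface, from secreted ligand to receptor and first transducer, were followed in growing mouse oocytes labelled as knocked out for the histone deacetylase genes Hdac1, Hdac2 or both. Members were the genes named Wnt, Fzd, Dvl, Dkk or Sfrp with a number, together with Lrp5, Lrp6, Frzb and Wif1, that had a probe set carrying exactly 1 gene symbol. The rule found 43 genes among the 18820 genes tested: 19 ligands, 12 receptors (10 Frizzleds, Lrp5 and Lrp6), 2 transducers and 10 secreted antagonists, each read by 1 probe set. Dvl2 was not included because its probe set carries several symbols. Fzd10os, a transcript from the strand opposite Fzd10 and no receptor gene, was set aside; its mean signals were 3.70 to 3.83 in the 4 genotypes.

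RNA was measured on 16 Affymetrix Mouse 1.1 ST arrays, 4 for each of 4 genotypes on the C57BL/6 background: wild type, Hdac1 knockout, Hdac2 knockout and the knockout of both genes. Each array carried RNA pooled from 80 oocytes taken from the ovaries of mice at 12 days of age, amplified before labelling. The knockouts combined conditional alleles of Hdac1, Hdac2 or both with a Cre transgene driven by the Zp3 promoter, which is active in oocytes once they start to grow. Whether the wild-type animals carried the transgene or the conditional alleles was not given in the sources used here. Because the oocytes were pooled, differences between single oocytes were not measured, and a lower signal from fewer expressing oocytes cannot be told apart from less RNA in each.

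In the canonical pathway a secreted Wnt protein binds a Frizzled receptor together with the co-receptor LRP5 or LRP6, Dishevelled (Dvl) proteins pass the signal on, and β-catenin is spared from its destruction complex and joins TCF/LEF factors on target genes. Some Dickkopf (Dkk) proteins, such as Dkk1, block LRP5 and LRP6, whereas SFRPs, Frzb and Wif1 bind the ligands. The antagonist group was set by gene name and not by activity, so it holds every Dkk gene measured. In the ovary, Wnt4 is known for its part in female gonad development, and granulosa cells around the oocyte also make Wnt proteins and Frizzleds.

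Hdac1 had 2 probe sets, of which only the one with the higher mean is given. It read 9.28 ± 0.05 (SD, n = 4, as for every mean with a ± below unless SE is written) in wild-type oocytes, 6.61 ± 0.19 where Hdac1 was deleted, 9.64 ± 0.11 where Hdac2 was, and 7.66 ± 0.10 where both were. The log2 change against wild type was -2.66 in the Hdac1 knockout (limma adjusted p = 3.97e-12) and -1.62 in the double knockout (limma adjusted p = 2.38e-10). It was 0.36 in the Hdac2 knockout (limma adjusted p = 0.0173). The double knockout read above the Hdac1 knockout by 1.04 (limma adjusted p = 5.22e-08). The Hdac2 probe set read 11.09 ± 0.07, 11.13 ± 0.05, 10.99 ± 0.03 and 10.87 ± 0.06 in the same order, with log2 changes against wild type of -0.10 in the Hdac2 knockout (limma adjusted p = 0.33) and -0.21 in the double knockout (limma adjusted p = 0.00274). The fall in the double knockout passed the test but was small beside that of Hdac1, and the signal stayed high in every genotype. The Hdac2 deletion in both genotypes therefore rests on the labels; whether the probes lie in the deleted part of the gene was not checked here, and probes outside it would check nothing. Array medians lay between 4.46 and 4.59, correlations within a genotype between 0.992 and 0.995, and the number of arrays limits the precision. All 15 oocyte markers measured, among them the zona pellucida and oocyte growth factor genes, read above the olfactory receptor level described in the next paragraph. Over each marker list, the mean signal per array was 11.04 to 11.11 in wild type and 11.06 to 11.13 in the double knockout for oocyte markers, and 4.84 to 4.97 and 4.86 to 4.95 for 13 granulosa cell markers. It was 3.93 to 4.0 and 4.01 to 4.09 for 12 theca and stroma markers, and 4.71 to 4.77 and 4.47 to 4.58 for 9 blood, immune and endothelial markers. Of the 13 granulosa cell markers 7 read above the olfactory receptor level in wild type, up to 9.82 for Nr5a2. In the double knockout 2 of the 13 rose (Inha and Gata4) and 2 fell (Kitl and Nr5a2) by limma at an adjusted p under 0.05. Of the 15 oocyte markers 1 rose and 3 fell, of the 12 theca and stroma markers 2 rose, and of the 9 blood, immune and endothelial markers 1 rose and 2 fell. Of all tested probe sets 18.5% were called higher and 19.8% lower. Amh and Fshr read under the olfactory receptor level, at 3.45 and 4.10 in wild type and 3.43 and 4.13 in the double knockout. These 2 do not speak for the 7 above it. The last 2 lists shifted in the double knockout with no overlap between its arrays and wild type, and the part of any of these lists in the results on the Wnt genes was not tested.

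The brightest surface components in wild-type oocytes were receptors and a transducer, and most ligands and antagonists read low. All signals are on the log2 scale, on which a difference of 1 is a doubling; signals of different probe sets do not rank transcript amounts, since probes differ in brightness. As a description of low signal, 1006 olfactory receptor probe sets had a median of 3.32 and a 95th percentile of 4.32 in wild type, and all tested probe sets had a median of 5.24. The mean wild-type signal passed that 95th percentile for 5 of 19 ligands, 7 of 12 receptors, 2 of 2 transducers and 4 of 10 antagonists. It passed the median of all tested probe sets for 8 members: Lrp6, Dvl3, Fzd3, Lrp5, Fzd5, Wnt7a, Fzd7 and Dvl1. Wild-type means ran from 3.39 (Fzd6) to 9.79 (Lrp6) among receptors, from 3.48 to 6.11 among ligands and from 3.64 (Sfrp4) to 5.04 (Dkk3) among antagonists. In the double knockout 11 of 12 receptors passed the olfactory receptor level, against 8 in the Hdac1 knockout and 9 in the Hdac2 knockout, while 4 of 19 ligands (Wnt7a, Wnt7b, Wnt8a and Wnt9a) passed it in every genotype, Wnt6 in all but the Hdac2 knockout and Wnt5a in the Hdac2 knockout alone. The wild-type level served for every genotype, and the same percentile was 4.31 in the double knockout. Some means lay close to it without a called difference from wild type, such as Fzd8 at 4.37 in the Hdac1 knockout and Fzd1 at 4.36 in the Hdac2 knockout. These counts are no test, and the share of all probe sets passing the level in each genotype was not counted.

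**Figure D1:**
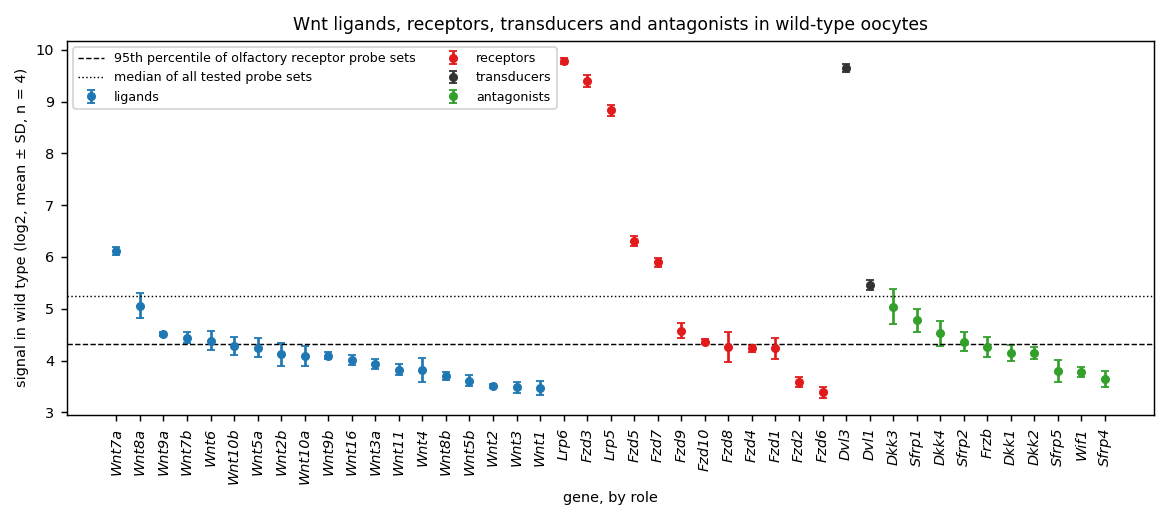
Mean log2 signal (± SD, n = 4 arrays) of the 43 genes in wild-type oocytes, ordered by role and then by signal; the dashed line is the 95th percentile of the olfactory receptor probe sets (4.32) and the dotted line the median of all tested probe sets (5.24). Lrp6, Dvl3, Fzd3 and Lrp5 stand highest, between 8.83 and 9.79, and Wnt7a at 6.11 is the ligand with the highest signal.

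In the double knockout 10 members rose and 5 fell against wild type (limma, adjusted p under 0.05), and 28 did not pass the test. That is 34.9% of the members, where 38.3% of all tested probe sets were called in either direction (18.5% higher and 19.8% lower), so the share called was near the background. The median log2 change was -0.0021 over the members and -0.01 over all probe sets tested. Receptors made up 4 of the 10 that rose (Fzd2, Fzd8, Fzd4 and Fzd7) and 3 of the 5 that fell (Lrp5, Fzd3 and Lrp6). The rest that rose were the ligands Wnt9a, Wnt4 and Wnt7b, the transducer Dvl1 and the antagonists Sfrp2 and Dkk1, and the rest that fell were the ligand Wnt8a and the antagonist Frzb. With each array centred on its median the split was 8 higher and 7 lower, where 13.6% of all tested probe sets were then called higher and 30.7% lower, and with quantile normalization it was 8 and 6, where 15.9% and 23.7% were. Centring moved the median change of all tested probe sets to -0.10, and Dvl1 and Fzd7 then no longer passed. Leaving out the dimmer part of the probe sets kept 8 members in the fit, of which 2 rose and 3 fell. The share called among all probe sets of that fit was not counted, so these numbers have no background. With a 1.4-fold limit added, the limit named in the series' design text, 6 rose and 1 fell, where 16.4% of all tested probe sets were called.

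Of the members called, 5 that rose (Fzd2, Fzd4, Fzd8, Wnt4 and Dkk1) and 1 that fell (Frzb) had wild-type means under the olfactory receptor level. The files hold no detection call, so their folds, and those of pathway genes as dim in wild type, are of the deposited signals and can understate the change in transcript.

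Single knockouts moved few members. In the Hdac1 knockout 1 of 43 passed the test, Dvl1, where 0.0707% of all tested probe sets were called (0.0189% as higher and 0.0518% as lower), and 9 members had an unadjusted p under 0.05. None of the 43 passed limma's test in the Hdac2 knockout, where 5.59% of all probe sets were called (2.86% as higher and 2.74% as lower) and 2 members had an unadjusted p under 0.05; the lowest adjusted p was 0.127, for Wnt5a. The 95% intervals of the log2 changes, not adjusted for their number, reached from -0.63 to 0.51 over the 42 members not called in the Hdac1 knockout and from -0.58 to 0.50 over the 43 in the Hdac2 knockout. The share of all tested probe sets with an unadjusted p under 0.05 was not counted, so the unadjusted counts have no background beside them. The 3 comparisons with wild type share the same wild-type arrays.

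**Figure D2:**
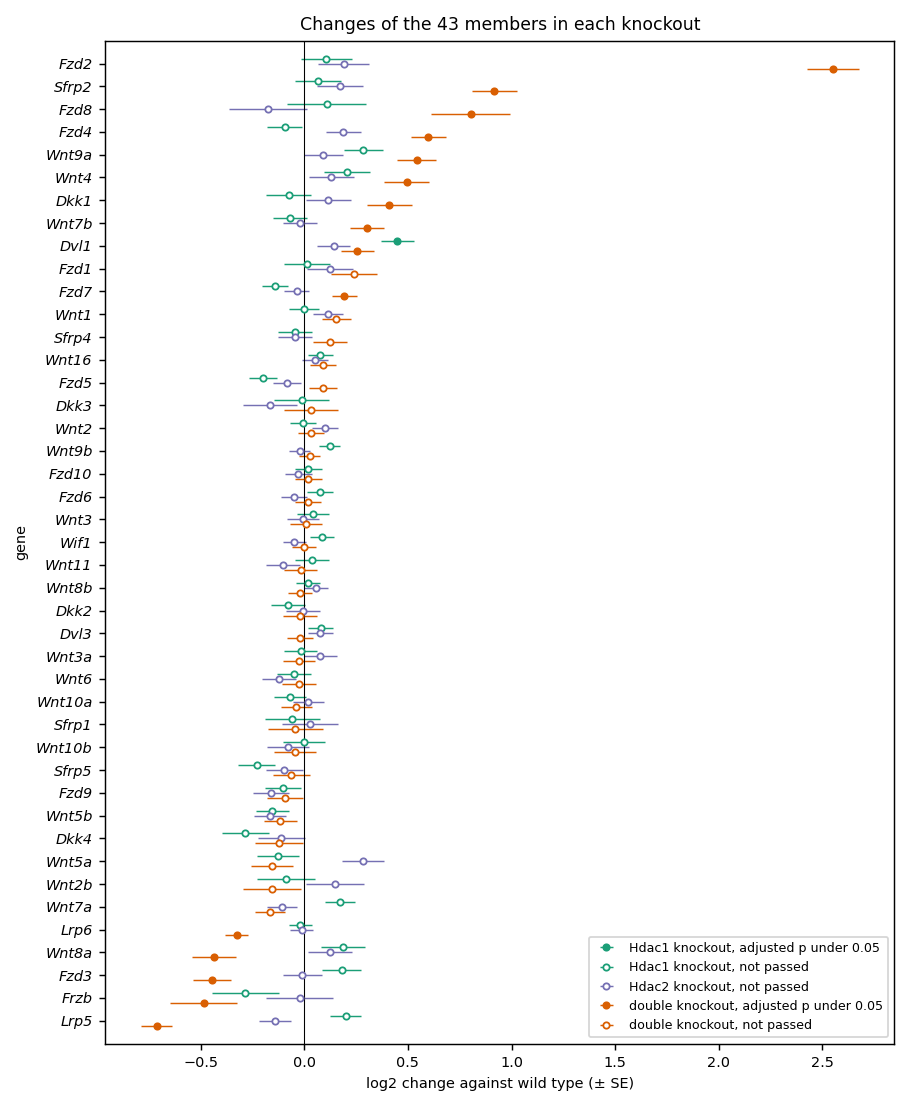
Log2 change against wild type (± SE) of each of the 43 genes in the Hdac1 knockout, the Hdac2 knockout and the double knockout; filled symbols passed limma's test at an adjusted p under 0.05. Fzd2 stands farthest to the right at 2.55 and Lrp5 farthest to the left at -0.71, both in the double knockout.

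Among the ligands, Wnt9a, Wnt4 and Wnt7b rose and Wnt8a fell in the double knockout, and 15 of 19 did not pass. For this and the other roles below, the background was 18.5% of all tested probe sets called higher and 19.8% lower. Values are given in the order of replicates 1 to 4, which has no meaning across genotypes. Wnt9a, a ligand known for its roles in joint and liver development, read 4.56, 4.46, 4.49 and 4.54 in the wild-type arrays, 4.97, 4.70, 4.77 and 4.75 in those of the Hdac1 knockout, 4.64, 4.64, 4.61 and 4.52 in those of the Hdac2 knockout and 5.32, 4.91, 5.19 and 4.79 in those of the double knockout. The double knockout lay above all wild-type and Hdac2 knockout arrays and overlapped the Hdac1 knockout, whose 4 arrays also lay above wild type. The rise in the double knockout was 0.54 ± 0.09 (SE), or 1.46-fold (limma adjusted p = 0.000209), and the difference of the Hdac1 knockout from wild type was 0.28 (limma adjusted p = 0.386). Wnt4, a ligand needed for development of the female gonad, read 3.98, 3.5, 3.80 and 4.0 in the wild-type arrays, 4.21, 3.89, 4.07 and 3.94 in those of the Hdac1 knockout, 3.94, 3.86, 4.07 and 3.94 in those of the Hdac2 knockout and 4.30, 4.18, 4.57 and 4.20 in those of the double knockout. Its double knockout arrays were above every wild-type and Hdac2 knockout array, with 1 Hdac1 knockout array reaching into their range. The change was 0.49 ± 0.11 (SE), or 1.41-fold (limma adjusted p = 0.00169). The wild-type mean of 3.82 ± 0.23 was under the olfactory receptor level and the double knockout mean of 4.31 ± 0.18 was near it. Wnt7b, a ligand of lung and kidney development, read 4.31, 4.57, 4.43 and 4.46 in the wild-type arrays, 4.51, 4.40, 4.19 and 4.37 in those of the Hdac1 knockout, 4.50, 4.34, 4.34 and 4.48 in those of the Hdac2 knockout and 4.75, 4.78, 4.88 and 4.56 in those of the double knockout. The lowest double knockout array fell within the wild-type range, and the other 3 lay above it. Wnt7b rose by 0.30 ± 0.08 (SE), or 1.23-fold (limma adjusted p = 0.00683).

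Wnt8a, a ligand of early embryonic patterning, read 5.39, 5.06, 4.84 and 4.93 in the wild-type arrays, 5.13, 5.22, 5.37 and 5.25 in those of the Hdac1 knockout, 5.23, 5.17, 4.96 and 5.36 in those of the Hdac2 knockout and 4.64, 4.56, 4.55 and 4.73 in those of the double knockout. Every double knockout array was below all 12 arrays of the other genotypes. Wnt8a fell by 0.44 ± 0.11 (SE), or 1.35-fold (limma adjusted p = 0.00314), from a wild-type mean of 5.06 ± 0.24 to 4.62 ± 0.08. Wnt7a, the ligand with the highest signal and known for its part in female reproductive tract development, read 6.12, 6.02, 6.10 and 6.21 in the wild-type arrays, 6.28, 6.27, 6.26 and 6.32 in those of the Hdac1 knockout, 6.02, 6.03, 5.95 and 6.01 in those of the Hdac2 knockout and 6.06, 6.08, 5.69 and 5.96 in those of the double knockout. The double knockout overlapped wild type and its difference was -0.17 (95% interval -0.32 to -0.01, limma adjusted p = 0.085). Against the Hdac1 knockout, whose arrays all lay above the wild-type range, Wnt7a was lower in the double knockout by a log2 difference of -0.34 (limma adjusted p = 0.00128). After median centring the adjusted p of Wnt7a against wild type was 0.0133 and after quantile normalization 0.0307. Wnt5a, a ligand of the non-canonical branch, read 4.12, 4.52, 4.19 and 4.16 in the wild-type arrays, 3.98, 4.33, 4.01 and 4.17 in those of the Hdac1 knockout, 4.65, 4.44, 4.32 and 4.72 in those of the Hdac2 knockout and 4.07, 4.07, 4.12 and 4.12 in those of the double knockout. The Hdac2 knockout stood above the other means at 4.53 ± 0.18; its difference from wild type was 0.28 and did not pass (limma adjusted p = 0.127), although without wild-type replicate 2 the adjusted p was 0.0389. The double knockout was lower than the Hdac2 knockout by a log2 difference of -0.44 (limma adjusted p = 0.00282), with no overlap. Wnt5a was picked out after its values were seen.

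The remaining 13 ligands (Wnt1, Wnt2, Wnt2b, Wnt3, Wnt3a, Wnt5b, Wnt6, Wnt8b, Wnt9b, Wnt10a, Wnt10b, Wnt11 and Wnt16) had double knockout changes between -0.16 (Wnt2b) and 0.15 (Wnt1). The RefSeq gene table (assembly GRCm38.p6) places 4 pairs of ligand genes side by side with 0 other coding genes between them, and only Wnt9a was called among these 8 genes. Wnt3a, its neighbour, changed by -0.03 ± 0.08 (SE) (95% interval -0.19 to 0.14, limma adjusted p = 0.841), against the 0.54 of Wnt9a. The Wnt3a means ran from 3.91 to 4.01 over the genotypes. All were under the olfactory receptor level of 4.32, where a change of transcript may not be detectable. In the pair Wnt10b and Wnt1 the differences were -0.04 and 0.15, in Wnt6 and Wnt10a -0.03 and -0.04, and in Wnt9b and Wnt3 0.03 and 0.01. Wild-type means of Wnt10b, Wnt1, Wnt10a, Wnt9b and Wnt3 were also under the olfactory receptor level. Because Wnt9a was called and Wnt3a was not, the 250 bases before the RefSeq start of each are printed. The stretches are chr11:59290752-59291001 (minus strand) for Wnt3a and chr11:59306680-59306929 (plus strand) for Wnt9a. They run 5′ to 3′ in the direction of each gene, build GRCm38.p6, with GC boxes (GGGCGG, or CCGCCC for a box on the other strand) in capitals.
Wnt3a: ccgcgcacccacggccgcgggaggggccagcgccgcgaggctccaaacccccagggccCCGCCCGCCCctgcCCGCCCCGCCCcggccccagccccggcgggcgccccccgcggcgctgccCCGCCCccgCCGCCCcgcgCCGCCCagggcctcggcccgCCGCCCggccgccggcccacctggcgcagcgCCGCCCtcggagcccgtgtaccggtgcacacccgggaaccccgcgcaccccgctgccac
Wnt9a: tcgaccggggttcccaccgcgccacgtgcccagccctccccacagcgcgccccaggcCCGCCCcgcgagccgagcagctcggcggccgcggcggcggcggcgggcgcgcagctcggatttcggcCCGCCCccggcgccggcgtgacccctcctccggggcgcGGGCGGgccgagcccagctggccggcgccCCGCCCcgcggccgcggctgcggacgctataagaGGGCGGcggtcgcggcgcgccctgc
Both stretches are rich in CpG dinucleotides, with 41 in Wnt3a and 48 in Wnt9a, and hold 9 and 5 GC boxes, so the presence of these letters did not separate the gene that rose from the one that did not pass.

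Among the 12 receptors 4 rose, 3 fell and 5 did not pass in the double knockout, and Fzd2 had the largest change of the 43 genes. Fzd2, a Frizzled receptor, read 3.58, 3.65, 3.66 and 3.46 in the wild-type arrays, 3.68, 3.83, 3.62 and 3.65 in those of the Hdac1 knockout, 4.02, 3.72, 3.49 and 3.87 in those of the Hdac2 knockout and 6.09, 5.76, 6.27 and 6.42 in those of the double knockout. All 4 double knockout arrays stood at least a doubling above every other array, while the single knockouts overlapped wild type. Fzd2 went from 3.59 ± 0.09 in wild type, under the olfactory receptor level, to 6.14 ± 0.28, a rise of 2.55 ± 0.12 (SE) or 5.86-fold (95% interval 2.29 to 2.81, limma adjusted p = 1.19e-10). The single knockout differences were 0.11 for Hdac1 (limma adjusted p = 0.863) and 0.19 for Hdac2 (limma adjusted p = 0.452). 

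Fzd8 and Fzd4 rose by less. Fzd8, another Frizzled receptor, read 4.37, 4.07, 4.62 and 4.0 in the wild-type arrays, 4.23, 4.18, 4.31 and 4.77 in those of the Hdac1 knockout, 4.30, 3.92, 4.11 and 4.02 in those of the Hdac2 knockout and 4.53, 5.48, 5.35 and 4.91 in those of the double knockout. Its lowest double knockout array lay within the wild-type and Hdac1 knockout ranges and the other 3 lay above all arrays of those groups. The mean went from 4.26 ± 0.29 to 5.07 ± 0.43, a log2 change of 0.80 ± 0.19 (SE) or 1.74-fold (limma adjusted p = 0.00267). Fzd4, the receptor for Norrin as well as Wnt proteins, read 4.17, 4.22, 4.24 and 4.32 in the wild-type arrays, 4.13, 4.16, 4.23 and 4.04 in those of the Hdac1 knockout, 4.65, 4.40, 4.17 and 4.47 in those of the Hdac2 knockout and 4.96, 4.69, 4.84 and 4.84 in those of the double knockout. The double knockout was above all 12 other arrays, and the Hdac2 knockout held the next highest. Fzd4 rose by 0.60 ± 0.09 (SE), or 1.51-fold (limma adjusted p = 2.8e-05), and the Hdac2 knockout differed from wild type by 0.19 (limma adjusted p = 0.243). The 250 bases before the Fzd4 start (chr7:89404116-89404365, plus strand, RefSeq build GRCm38.p6, GC boxes in capitals) are shown because this receptor rose with no overlap.
Fzd4: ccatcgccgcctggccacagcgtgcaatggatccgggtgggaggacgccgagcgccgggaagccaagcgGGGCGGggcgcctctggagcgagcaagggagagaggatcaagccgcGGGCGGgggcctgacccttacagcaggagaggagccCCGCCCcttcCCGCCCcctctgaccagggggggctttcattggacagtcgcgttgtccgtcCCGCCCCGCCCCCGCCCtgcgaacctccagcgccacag
This stretch holds 7 GC boxes and 25 CpG dinucleotides, and 72.8% of its bases are G or C.

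Fzd7, a Frizzled of canonical signalling, read 5.86, 5.92, 5.99 and 5.80 in the wild-type arrays, 5.87, 5.68, 5.71 and 5.76 in those of the Hdac1 knockout, 5.86, 5.83, 5.92 and 5.82 in those of the Hdac2 knockout and 6.12, 5.96, 6.17 and 6.10 in those of the double knockout. The double knockout stood above both single knockouts, and 1 of its arrays fell within the wild-type range. The change against wild type was 0.19 ± 0.06 (SE), or 1.14-fold (limma adjusted p = 0.0181), and did not pass after median centring (adjusted p = 0.183), after quantile normalization (0.0864), with a trended robust prior in limma (0.0629) or without wild-type replicate 4 (0.0651) or double knockout replicate 3 (0.0593). Fzd5, a Frizzled of eye and gut development, read 6.23, 6.40, 6.23 and 6.39 in the wild-type arrays, 6.15, 6.06, 6.08 and 6.17 in those of the Hdac1 knockout, 6.15, 6.24, 6.22 and 6.32 in those of the Hdac2 knockout and 6.45, 6.25, 6.35 and 6.56 in those of the double knockout. All Hdac1 knockout arrays were below wild type and the double knockout overlapped it. Fzd5 differed by -0.20 in the Hdac1 knockout (limma adjusted p = 0.394) and by 0.09 in the double knockout (95% interval -0.05 to 0.23, limma adjusted p = 0.346), and the double knockout was higher than the Hdac1 knockout by 0.29 (limma adjusted p = 0.00247).

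The 3 receptors that fell were among the 6 members with the highest wild-type signal. Lrp5, a co-receptor of the canonical pathway, read 8.77, 9.0, 8.79 and 8.75 in the wild-type arrays, 9.16, 9.11, 8.97 and 8.87 in those of the Hdac1 knockout, 8.66, 8.74, 8.73 and 8.62 in those of the Hdac2 knockout and 8.21, 8.04, 8.21 and 8.01 in those of the double knockout. The double knockout was below all 12 other arrays, the Hdac1 knockout mean was above wild type, and the Hdac2 knockout mean was below it. Lrp5 fell by 0.71 ± 0.08 (SE), or 1.64-fold (95% interval -0.87 to -0.55, limma adjusted p = 1.17e-06); the single knockout differences of 0.20 and -0.14 did not pass (limma adjusted p = 0.454 and 0.338). Lrp6, the partner co-receptor, read 9.71, 9.83, 9.80 and 9.82 in the wild-type arrays, 9.72, 9.79, 9.85 and 9.71 in those of the Hdac1 knockout, 9.67, 9.81, 9.82 and 9.81 in those of the Hdac2 knockout and 9.54, 9.43, 9.37 and 9.52 in those of the double knockout. Again the double knockout lay below every other array, while the single knockouts lay within or next to the wild-type range. Lrp6 fell by 0.33 ± 0.06 (SE), or 1.25-fold (limma adjusted p = 0.000183). Fzd3, a Frizzled known for planar polarity in axons and hair cells, read 9.28, 9.37, 9.57 and 9.36 in the wild-type arrays, 9.83, 9.44, 9.48 and 9.56 in those of the Hdac1 knockout, 9.31, 9.39, 9.43 and 9.42 in those of the Hdac2 knockout and 9.08, 8.81, 8.81 and 9.11 in those of the double knockout. Its double knockout arrays were likewise below all 12 others, and it fell by 0.45 ± 0.09 (SE), or 1.36-fold (limma adjusted p = 0.000939).

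Fzd1, Fzd6, Fzd9 and Fzd10 did not pass in the double knockout. Fzd1 read 4.23 ± 0.21 in wild type and 4.47 ± 0.19 in the double knockout, a difference of 0.24 (95% interval 0.00 to 0.48, limma adjusted p = 0.108), so a rise of the size seen for Fzd7 lies inside its interval. The differences of Fzd6, Fzd9 and Fzd10 were 0.02, -0.09 and 0.02.

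**Figure D3:**
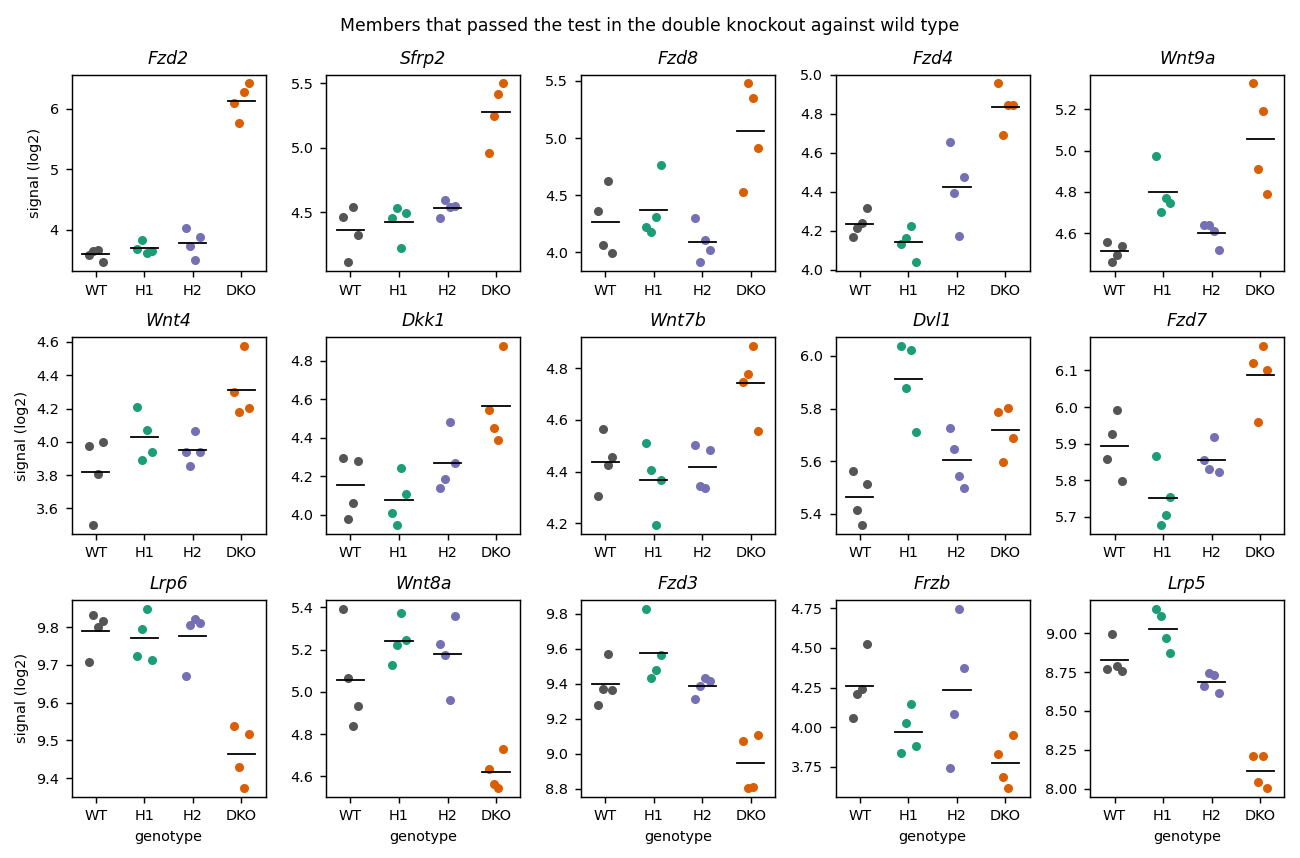
Log2 signal of each array (points) and group mean (bar) for the 15 genes that passed limma's test in the double knockout (DKO) against wild type (WT), with the Hdac1 (H1) and Hdac2 (H2) knockouts; each panel has its own axis, which does not start at 0. For Fzd2, Sfrp2, Fzd4, Lrp5, Lrp6, Fzd3 and Wnt8a the double knockout arrays do not overlap any of the 12 others.

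Of the Dishevelled genes, which carry the signal from Frizzled into the cell, Dvl1 rose and Dvl3 did not pass. Dvl1 read 5.56, 5.42, 5.36 and 5.51 in the wild-type arrays, 6.04, 5.88, 6.02 and 5.71 in those of the Hdac1 knockout, 5.73, 5.65, 5.54 and 5.50 in those of the Hdac2 knockout and 5.79, 5.60, 5.80 and 5.69 in those of the double knockout. All Hdac1 knockout and all double knockout arrays were above wild type, and the Hdac1 knockout held the highest mean. Dvl1 rose by 0.45 ± 0.08 (SE), or 1.36-fold, in the Hdac1 knockout (95% interval 0.28 to 0.62, limma adjusted p = 0.0487) and by 0.26 ± 0.08 (SE), or 1.19-fold, in the double knockout (limma adjusted p = 0.0167). The Hdac1 knockout call was marginal: it was lost in 14 of 16 fits that left out 1 array, in all except those without Hdac1 knockout replicate 4 and without Hdac2 knockout replicate 1, with adjusted p up to 0.169. In the double knockout the call was lost after median centring (adjusted p = 0.0965), after quantile normalization (0.0711) and without wild-type replicate 3 (0.0565) or double knockout replicate 3 (0.0518). Dvl3 read 9.64, 9.74, 9.55 and 9.65 in the wild-type arrays, 9.73, 9.69, 9.78 and 9.69 in those of the Hdac1 knockout, 9.74, 9.67, 9.77 and 9.71 in those of the Hdac2 knockout and 9.72, 9.60, 9.71 and 9.46 in those of the double knockout. The genotypes overlapped. Its double knockout difference was -0.02 with a 95% interval of -0.15 to 0.11 (limma adjusted p = 0.836).

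Among the secreted antagonists Sfrp2 and Dkk1 rose and Frzb fell in the double knockout, and 7 of 10 did not pass. Sfrp2, which binds Wnt proteins outside the cell, read 4.47, 4.12, 4.54 and 4.33 in the wild-type arrays, 4.46, 4.53, 4.23 and 4.49 in those of the Hdac1 knockout, 4.46, 4.60, 4.54 and 4.55 in those of the Hdac2 knockout and 4.96, 5.24, 5.42 and 5.50 in those of the double knockout. The double knockout was above all 12 other arrays and the single knockouts overlapped wild type. Sfrp2 rose by 0.92 ± 0.11 (SE), or 1.89-fold (95% interval 0.68 to 1.15, limma adjusted p = 4.62e-06), the second largest rise among the 43. Its 250 bases before the start (chr3:83766071-83766320, plus strand, RefSeq build GRCm38.p6) are shown as the contrast to Fzd4: this gene also rose with no overlap, and the stretch has no GC box and so no capitals.
Sfrp2: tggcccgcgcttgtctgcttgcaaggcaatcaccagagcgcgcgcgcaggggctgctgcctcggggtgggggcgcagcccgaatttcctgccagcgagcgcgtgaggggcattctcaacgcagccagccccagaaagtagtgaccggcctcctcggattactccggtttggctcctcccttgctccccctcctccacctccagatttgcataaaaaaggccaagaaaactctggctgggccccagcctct
It holds 16 CpG dinucleotides, and 63.6% of its bases are G or C. Dkk1, which blocks LRP5 and LRP6, read 4.29, 3.98, 4.06 and 4.28 in the wild-type arrays, 4.01, 3.95, 4.24 and 4.11 in those of the Hdac1 knockout, 4.14, 4.18, 4.48 and 4.27 in those of the Hdac2 knockout and 4.54, 4.45, 4.39 and 4.87 in those of the double knockout. The double knockout lay above all wild-type and Hdac1 knockout arrays and overlapped the Hdac2 knockout. Dkk1 rose by 0.41 ± 0.11 (SE), or 1.33-fold (limma adjusted p = 0.00617). Frzb, a secreted Frizzled-related protein, read 4.06, 4.21, 4.24 and 4.52 in the wild-type arrays, 3.84, 4.03, 4.15 and 3.88 in those of the Hdac1 knockout, 3.74, 4.08, 4.75 and 4.38 in those of the Hdac2 knockout and 3.83, 3.69, 3.62 and 3.95 in those of the double knockout. The double knockout was below wild type with no overlap but shared its range with both single knockouts, and the Hdac2 knockout arrays were spread over more than 1 log2 unit. Frzb fell by 0.49 ± 0.16 (SE), or 1.4-fold (limma adjusted p = 0.0246), from 4.26 ± 0.20 to 3.77 ± 0.15, both under the olfactory receptor level. That call was lost without wild-type replicate 4 (adjusted p = 0.0848), double knockout replicate 2 (0.058) or double knockout replicate 3 (0.069). Dkk2, Dkk3, Dkk4, Sfrp1, Sfrp4, Sfrp5 and Wif1 differed by -0.12 (Dkk4) to 0.12 (Sfrp4) and did not pass. Over all 28 members that did not pass in the double knockout, the 95% intervals reached from -0.45 to 0.48.

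The upstream stretches were then read for 29 of the 43 genes that matched the RefSeq promoter table, with 32 promoters. Fzd2, Fzd8 and Wnt7b, which rose, and Lrp5, Lrp6, Fzd3 and Wnt8a, which fell, were not among them. The only gene read that fell was therefore Frzb. A GC box on either strand was found in 24 of 32 (75%), against 32.7% of all 32851 promoters in the table; by response it was 5 of 7 among genes that rose in the double knockout, 1 of 1 that fell and 18 of 24 not called. The motif ATCAAAG, a common core of TCF/LEF sites, was found on either strand in 2 of 32 (6.25%), against 3.21% of all, and in 0 of the 7 that rose. The median number of CpG dinucleotides was 21.5 in the members' stretches, 25 in the 7 that rose and 6 in all promoters. These matches describe letters in a window of 250 bases and say nothing of binding.

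Set against the single knockouts, the double knockout differed at a like number of members. Against the Hdac1 knockout 10 were higher and 5 lower, where 38.7% of all tested probe sets were called (18.7% higher and 20.1% lower), and against the Hdac2 knockout 9 were higher and 6 lower, where 33.7% were called (16.8% higher and 16.9% lower). Fzd2 was higher than in the Hdac1 knockout by 2.44 and than in the Hdac2 knockout by 2.36 (limma adjusted p = 1.99e-10 and 4.6e-10). Sfrp2 was higher by 0.85 and 0.74 (limma adjusted p = 9.92e-06 and 6.09e-05). For Lrp5 the differences were -0.91 and -0.57 (limma adjusted p = 7.27e-08 and 1.98e-05). These comparisons share the double knockout arrays with each other and with the comparison against wild type. With the 1.4-fold limit added, 8 members were called against the Hdac1 knockout (16.6% of all probe sets), 5 against the Hdac2 knockout (12.1%) and 7 for the interaction described next (12.7%); in the single knockouts limma with that limit called 0 members against wild type, where it called 0.0518% and 2.14% of all probe sets.

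The interaction asks whether the change in the double knockout equals what adding up both single-knockout log2 changes would give. It passed for 12 of 43 members (27.9%), 7 in the positive and 5 in the negative direction, where 23.3% of all tested probe sets passed (11.7% positive and 11.6% negative). Receptors held 8 of the 12. Fzd2 departed by 2.25 ± 0.17 (SE) (limma adjusted p = 1.4e-07), Fzd8 by 0.87 ± 0.27 (SE) (limma adjusted p = 0.0266) and Fzd4 by 0.50 ± 0.12 (SE) (limma adjusted p = 0.00586). Fzd2 read under the olfactory receptor level in wild type and both single knockouts (3.59, 3.69 and 3.78), and Fzd8 and Fzd4 read under or near it there. At that level single-knockout changes of transcript can be understated, so these departures are of the deposited signals only. On the negative side Lrp5 departed by -0.77 ± 0.11 (SE) (limma adjusted p = 7.13e-05), Wnt8a by -0.75 ± 0.15 (SE) (limma adjusted p = 0.00166) and Fzd3 by -0.62 ± 0.13 (SE) (limma adjusted p = 0.00256). For Wnt9a and Wnt4, which rose in the double knockout, the interactions of 0.17 and 0.16 did not pass (limma adjusted p = 0.427 and 0.53). The interaction of Fzd8 was lost in 7 of 16 fits without 1 array, with adjusted p up to 0.0562, and that of Dvl1 (-0.33, limma adjusted p = 0.0402) in 9 of 16, up to 0.0811.

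Beyond the surface components, 71 other Wnt pathway genes were measured, on lists chosen with earlier results of these data known. Of these 71 genes, 25 rose and 13 fell in the double knockout (53.5%, against 38.3% of all tested probe sets). That share depends on the choice of genes and is no test of the pathway. The median change of the 71 genes was 0.06, against -0.01 over all probe sets. With median centring their split was 19 higher and 20 lower, where 44.3% of all tested probe sets were then called, 13.6% higher and 30.7% lower. In the Hdac1 knockout limma called 0 of 71, with 9 at an unadjusted p under 0.05, a limit for which no background share was counted. In the Hdac2 knockout 1 rose and 4 fell (7.04%, against 5.59% of all). That last count fell to 3 without wild-type replicate 3 or without Hdac2 knockout replicate 2. The double knockout counts by list below are from the values as deposited, where 18.5% of all tested probe sets were called higher and 19.8% lower.

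Of 13 measured genes of the destruction complex and β-catenin, 8 rose, 1 fell and 4 did not pass in the double knockout. Frat1, a GSK3-binding protein that favours β-catenin, read 4.61, 4.63, 4.47 and 4.45 in the wild-type arrays, 4.60, 4.36, 4.50 and 4.57 in those of the Hdac1 knockout, 4.91, 4.74, 4.70 and 4.75 in those of the Hdac2 knockout and 6.55, 6.13, 5.87 and 6.47 in those of the double knockout. The double knockout was above all 12 others, a rise of 1.72 ± 0.12 (SE) or 3.28-fold (limma adjusted p = 6.55e-09). Amer1, which brings APC and axin to the membrane, read 7.39, 7.27, 7.46 and 7.17 in the wild-type arrays, 6.95, 7.22, 7.14 and 7.24 in those of the Hdac1 knockout, 8.20, 8.07, 8.26 and 8.20 in those of the Hdac2 knockout and 8.64, 8.80, 8.75 and 8.60 in those of the double knockout. Both genotypes lacking Hdac2 by label were above wild type without overlap: Amer1 rose by 0.86 ± 0.08 (SE) in the Hdac2 knockout (limma adjusted p = 9.24e-06) and by 1.38 ± 0.08 (SE) in the double knockout (limma adjusted p = 8.75e-10). Frat2 rose by 0.92 (limma adjusted p = 0.000708), Ctnnb1, which encodes β-catenin, by 0.21 (limma adjusted p = 0.00764) and Axin2 by 0.28 (limma adjusted p = 0.014). Apc, the scaffold of the complex, fell by 0.44 (limma adjusted p = 0.000493).

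Among 13 nuclear effectors 5 rose, 3 fell and 5 did not pass. Lef1, a DNA-binding partner of β-catenin, read 6.83, 7.23, 7.13 and 7.0 in the wild-type arrays, 7.22, 6.98, 6.91 and 7.22 in those of the Hdac1 knockout, 5.93, 6.23, 6.66 and 6.37 in those of the Hdac2 knockout and 5.64, 5.84, 5.69 and 6.12 in those of the double knockout. Wild type and the Hdac1 knockout lay above the Hdac2 knockout and the double knockout, and the latter pair overlapped in range. Lef1 fell by 0.75 ± 0.14 (SE) in the Hdac2 knockout (limma adjusted p = 0.00457) and by 1.22 ± 0.14 (SE) in the double knockout (limma adjusted p = 2.72e-06). Tcf7l2, of the same family, fell by 0.47 (limma adjusted p = 7.36e-05) and Pygo1, a β-catenin co-activator, by 0.41 (limma adjusted p = 0.000116), whereas the co-repressor Tle1 rose by 1.02 (limma adjusted p = 8.04e-07).

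Of 18 ligand partners and other modulators 5 rose, 3 fell and 10 did not pass. Lgr4, a receptor for R-spondins, rose from 7.67 ± 0.08 to 8.62 ± 0.11, by 0.95 ± 0.07 (SE) or 1.93-fold (limma adjusted p = 2.67e-08). The ubiquitin ligases that remove Frizzleds moved in opposite directions: Rnf43 fell by 0.52 (limma adjusted p = 0.000276) and Znrf3 rose by 0.43 (limma adjusted p = 0.000803). Rnf43 also fell in the Hdac2 knockout, by 0.36 (limma adjusted p = 0.035). Among 13 non-canonical receptors and polarity genes 2 rose and 4 fell; Ptk7, a co-receptor of planar polarity, rose by 1.05 or 2.06-fold (limma adjusted p = 1.92e-07), and Celsr1, a polarity cadherin, fell by 0.51 (limma adjusted p = 8.98e-05). Of 3 genes for Wnt processing and secretion, Wls, which carries Wnt proteins to the surface, fell by 0.40 (limma adjusted p = 0.0478), and Porcn and Notum did not pass.

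Of 11 genes put on a list of pathway targets, 5 rose, 1 fell and 5 did not pass. The list was chosen with earlier results of these data known. Whether any of its genes, Zcchc12 included, answers to Wnt signalling in oocytes was not tested. Zcchc12 had the largest rise, from 3.44 ± 0.32 to 6.64 ± 0.30, by 3.20 ± 0.15 (SE) (limma adjusted p = 1e-10). Dact1, a Dishevelled-binding protein, rose from 3.85 ± 0.12 to 6.46 ± 0.40, by 2.61 ± 0.15 (SE) or 6.11-fold in signal (limma adjusted p = 6.86e-10), and its single knockout arrays overlapped wild type. Zcchc12, Dact1 and Jun had wild-type means under the olfactory receptor level. Jun, a subunit of the AP-1 transcription factor, read 7.09, 5.35, 7.44 and 6.38 in the double knockout against 4.27, 3.87, 4.09 and 4.34 in wild type; all 4 were higher, over a wide spread, and the rise was 2.42 ± 0.30 (SE) (limma adjusted p = 7.12e-06). Nkd1, a feedback inhibitor, fell by 0.30 (limma adjusted p = 0.000222). Of the other genes in the list, Myc, Ccnd1 and Cd44 did not pass, with differences of 0.33, 0.17 and 0.01. Sp5 arrays read 4.72 to 4.95 in wild type and 5.03 to 5.94 in the double knockout, with no overlap. Tnfrsf19 arrays read 5.23 to 5.74 in wild type and 5.91 to 6.12 in the double knockout. In the Hdac2 knockout Tnfrsf19 lay on the other side of wild type, at 4.53 to 4.97.

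**Figure D4:**
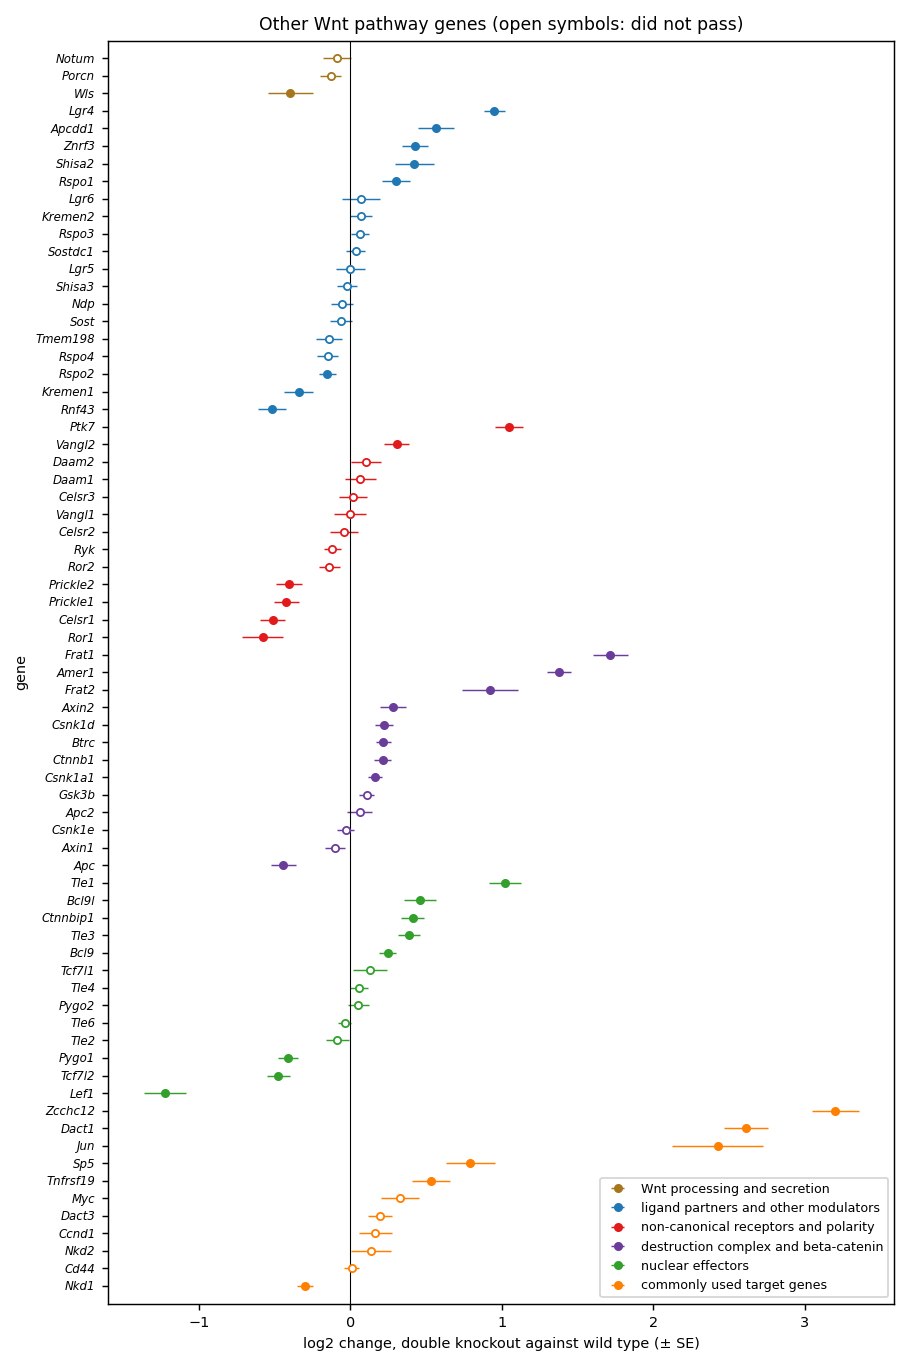
Log2 change (± SE) in the double knockout against wild type of the 71 other Wnt pathway genes, coloured by list; open symbols did not pass limma's test at an adjusted p under 0.05. Zcchc12, Dact1 and Jun lie farthest to the right, between 2.42 and 3.20, and Lef1 farthest to the left at -1.22.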

How the data were processed

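The labels describe 4 biological replicates of each of 4 genotypes, and p-values rest on the spread between the samples within each genotype. The authors deposited a table of 35556 probe sets with values on a log scale taken as log2; the base is not stated and was inferred from the values, so fold changes rest on it. Per the submitters' processing notes MAS5 was used, and the series' design text adds GeneSpring v7, SAM, EASE and a 1.4-fold limit; how the authors combined them is not stated there. Values were used as deposited. Of the probe sets, 21218 carried 1 symbol and were tested, 1881 carried several and 12457 none. limma 3.58.1 in R 4.3.3 (lmFit, eBayes, 12 residual degrees of freedom) fitted a mean per genotype to all 16 arrays, with Benjamini-Hochberg adjustment over the 21218, and was checked on simulated data. A gene was called at an adjusted p under 0.05. Where a gene had several probe sets, the one with the highest mean stood for it. All 43 members matched the RefSeq table (GRCm38.p6) by gene identifier. Members and lists were chosen with earlier results of these data known. Named members were those called against wild type, those with an interaction and the 6 with the highest wild-type signal; of each pathway list, up to 4 with the lowest adjusted p, besides genes named for their role. Alternatives were median centring, quantile normalization, leaving out dim probe sets, testing all probe sets, a trended robust prior, only the arrays compared, a replicate block, averaged probe sets, a 1.4-fold limit and leaving out each array.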

Additional observations from a re-analysis of the deposited data

Results flagged for a closer look

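Within the 19 members whose arrays are given singly, 76 groups of 4 arrays were searched for an array far from the other 3, measured as its gap to the nearest array over the whole range of the group, against Dixon's 95% critical value. That value was passed in 3 groups; chance passes it in about 1 in 20. Lrp5 in wild-type replicate 2 read 9.0 against 8.75 to 8.79 in the others, a gap share of 0.843. Lrp6 in Hdac2 knockout replicate 1 read 9.67 against 9.81 to 9.82, a gap share of 0.883. Wnt5a in wild-type replicate 2, the array whose omission brought the Hdac2 knockout difference past the test, read 4.52 against 4.12 to 4.19, a gap share of 0.83. Lrp5 and Lrp6 were called as lower in the double knockout in every fit that left out 1 array.

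A difference between the effect of losing one deacetylase in the presence and in the absence of the other, tested as the interaction in limma, drew attention to 12 members. The log2 interactions were 2.25 for Fzd2, 0.87 for Fzd8, 0.68 for Sfrp2, 0.50 for Fzd4, 0.39 for Wnt7b, 0.37 for Fzd5 and 0.37 for Fzd7 on the positive side. They were -0.77 for Lrp5, -0.75 for Wnt8a, -0.62 for Fzd3, -0.33 for Dvl1 and -0.29 for Lrp6 on the negative side. For Fzd2, Fzd8 and Fzd4, with wild-type means under the olfactory receptor level, single-knockout changes of transcript can be understated.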

How the results depend on the processing

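The count of members called against wild type in the Hdac1 knockout, 1 as reported, was 0 with median centring, quantile normalization, all probe sets tested, a trended robust prior, only the arrays compared, averaged probe sets or a 1.4-fold limit, and 0 to 1 without 1 array. In the Hdac2 knockout the count was 0 to 1 without 1 array, the 1 being Wnt5a without wild-type replicate 2. For the double knockout the count of 15 was 5 with dim probe sets left out, which kept 8 members in the fit, 7 with a 1.4-fold limit, and 12 to 16 without 1 array. Against the Hdac1 knockout it was 7, 8 and 13 to 15, against the Hdac2 knockout 5, 5 and 13 to 15, and for the interaction 6, 7 and 10 to 12, under the same settings. Among the 71 other pathway genes the Hdac2 knockout count of 5 was 3 to 5 without 1 array, and the double knockout count of 38 was 36 to 39. Differences that had not passed changed sign for Dvl3 in the double knockout, 0.0115 without wild-type replicate 2 and 0.0336 without double knockout replicate 4 (-0.0520 to 0.0336 over the fits without 1 array), and for Fzd5, -0.00199 with median centring. The causes were not tested, except that dim filtering and the fold limit leave fewer members to call. The share called among all probe sets kept by the dim filter was not counted.

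Replicate numbers did not pair the arrays: over 24 same-numbered pairs the correlations of deviations from group means ran from -0.148 to 0.0866, and 2 of 16 arrays correlated best with their own number. With the replicate number as a block the counts were 1, 0 and 15 against wild type, 16 and 15 against the Hdac1 and Hdac2 knockouts, and 12 for the interaction. Most antagonists and ligands read at or below the olfactory receptor level, where a change of transcript may not be detectable.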
